A study of Homo sapiens with 20 samples.

Results

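The anchor pairs of chromosome 7 were followed along the chromosome in 4 human glioblastoma (GBM) cell lines, before and after correction of a STAG2 mutation. An anchor pair is a pair of 5 kb pieces of chromatin that met in the nucleus more often than the background, here called a loop, and its value is the loop strength. All anchor pairs on chromosome 7 in any of the 4 loop lists were taken, which gave 48084 of 572000 in the genome. They were grouped in fixed 5 Mb windows by the start of the first anchor on hg19, and in each window the log2 ratio of strength, STAG2-corrected over STAG2-mutant, was computed for each isogenic pair of lines. H4 and 42MGBA are GBM lines that carry an endogenous STAG2 mutation, and both are labeled STAG2-mutant. H4 88-1 and 42MGBA 53-1 derive from them by gene editing, are labeled STAG2-WT, and each goes by a single clone name. No treatment is labeled for the Hi-C cultures, and 2 Hi-C libraries of each line were pooled by the authors into 1 list of its 300000 strongest anchor pairs. With 1 value per line, no difference below has a replicate check or a test, and the ratio itself chose how the chromosome is described, so that all values are descriptions of these libraries. The anchor pairs were chosen by their chromosome, from the 300000 largest strengths of each list, and the profile was selected on the same strengths. Read counts per loop were not used here, and the depth behind each loop is unknown.

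Cohesin is a ring-shaped protein complex that extrudes chromatin into loops until it meets an obstacle, most often the DNA-binding protein CTCF bound in an inward orientation. STAG2 and its paralog STAG1 are alternative subunits of the ring, and STAG2 is truncated in some GBM tumors. Chromosome 7 is well known in this tumor type for EGFR, MET and CDK6, which drive growth and the cell cycle. It also holds the HOXA cluster of patterning genes, the neighboring class 3 semaphorins that guide axons, and the collagen gene COL1A2.

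Because CTCF often holds a loop, a short motif that resembles the core of the CTCF binding motif, with some positions left free, was searched on both strands, and the stretches below are the matches in the anchors of the loops that changed most in the windows described later. Each is 72 bases of hg19, read 5′ to 3′ on the strand given, with the motif in capitals. They come from the partner anchor of DOCK4 (2 matches, on opposite strands), the DNAAF5 anchor, the partner anchor of ELAPOR2, the SEMA3D anchor and the TPST1 anchor.
DOCK4 partner, chr7:112051826-112051897, plus strand: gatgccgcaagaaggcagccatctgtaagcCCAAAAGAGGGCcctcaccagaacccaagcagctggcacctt
DOCK4 partner, chr7:112055097-112055168, minus strand: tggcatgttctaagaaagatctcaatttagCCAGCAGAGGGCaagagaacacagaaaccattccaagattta
DNAAF5, chr7:797386-797457, plus strand: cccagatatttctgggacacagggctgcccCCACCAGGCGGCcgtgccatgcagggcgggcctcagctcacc
ELAPOR2 partner, chr7:86866336-86866407, minus strand: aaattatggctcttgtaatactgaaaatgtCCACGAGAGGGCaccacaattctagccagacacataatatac
SEMA3D, chr7:84652552-84652623, minus strand: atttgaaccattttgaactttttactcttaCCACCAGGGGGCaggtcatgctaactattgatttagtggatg
TPST1, chr7:65669826-65669897, plus strand: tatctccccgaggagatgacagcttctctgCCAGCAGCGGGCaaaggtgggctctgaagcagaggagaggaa

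The motif was in 13.6% of the 8119 chromosome 7 anchors and in 12.0% of the 31055 tiles of 5 kb that cover the chromosome, and a match is a description of the letters only. Of the chromosome 7 anchor pairs of the H4 pair, 1.20% had a plus-strand match in the left anchor and a minus-strand match in the right anchor, the inward orientation. The share was 2.63% of the 835 anchor pairs that were at least 1.5-fold weaker in H4 88-1 and 1.41% of the 498 that were at least 1.5-fold stronger. For the 42MGBA pair the inward share was 1.05% of all, 1.49% of the 737 weaker and 0.541% of the 185 stronger anchor pairs. The strongest loops of each line, which were not split by change, also had a higher inward share than all its listed loops. Among the 1000 strongest chromosome 7 anchor pairs it was 2.5% in H4 and 2.9% in H4 88-1. For 42MGBA it was 2.2%, and for 42MGBA 53-1 1.6%. A loop called weaker must be well above the lowest strength in the mutant line, so the shares of called loops are not separate from strength. Neighboring anchor pairs share anchors, so that these shares rest on fewer sites than anchor pairs. The shares of called loops rest on few matched anchor pairs, fewest for the stronger ones of the 42MGBA pair, and their differences were not tested.

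Chromosome 7 held more of the list in H4 than in any other line. It contributed 33452 anchor pairs to the list of H4, or 11.2%, the most of any chromosome, and 26392 or 8.80% to that of H4 88-1. It contributed 19967 or 6.66% in 42MGBA and 21046 or 7.02% in 42MGBA 53-1, rank 4 among chromosomes in both. Of the 48084 anchor pairs, 9149 (19.0%) were in all 4 lists and 18923 (39.4%) in only 1, close to the genome-wide shares of 19.3% and 41.2%. The lowest strength of a list was 4.14 in H4 against 4.44 in H4 88-1, and 4.49 in 42MGBA against 4.28 in 42MGBA 53-1, and an anchor pair absent from a list was given that value. The chromosome 7 members just inside these limits had strengths of 4.14412, 4.44426, 4.48793 and 4.27524, and those just outside have no value.

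The loops of chromosome 7 were larger than those of other chromosomes in all 4 lines. The median distance between anchor midpoints was 562 kb in H4 against 507 kb in H4 88-1, and 391 kb in 42MGBA against 330 kb in 42MGBA 53-1. On the other chromosomes it was 330.0, 300.4, 301.6 and 253.0 kb in the same order. Loops of 1 Mb or more made up 13.1% of the chromosome 7 list in H4 against 8.68% in H4 88-1, and 5.32% in 42MGBA against 4.17% in 42MGBA 53-1. The size was thus larger in the STAG2-mutant line of each pair, on chromosome 7 as on the rest of the genome.

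The comparison of H4 88-1 with H4 asked which loops of chromosome 7 differ in strength after STAG2 correction. Over the 37750 anchor pairs of this pair of lines, the median log2 ratio was -0.0065 (interquartile range -0.19 to 0.14), against 0.10 on the other chromosomes. Chromosome 7 had the second lowest median of 24 chromosomes, and the medians of the other 23 had an SD of 0.040. Of its anchor pairs, 11358 (30.1%) were listed only in H4 and 4298 (11.4%) only in H4 88-1, whereas on the other chromosomes the shares were 21.6% and 23.6%. Among the 22094 anchor pairs listed in both lines the median was -0.019, against 0.098 elsewhere. At least 1.5-fold weaker after correction were 835 (2.21%), with 0.722% over the genome, and at least 1.5-fold stronger were 498 (1.32%), with 2.92% over the genome. With each ratio taken minus the genome median, these counts became 1637 weaker and 227 stronger, and centered by loop size, as described later, 1113 and 237. The weaker loops had a median size of 718 kb and the stronger ones 305 kb, and they fell into 218 and 147 blocks of 25 kb by 25 kb.

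The comparison of 42MGBA 53-1 with 42MGBA gave no such offset. Over 26540 anchor pairs the median log2 ratio was -0.059 (interquartile range -0.21 to 0.091), against -0.078 on the other chromosomes, rank 14 from the lowest among 23. Listed only in 42MGBA were 5494 (20.7%) and only in 42MGBA 53-1 6573 (24.8%), against 24.5% and 24.2% on the other chromosomes. At least 1.5-fold weaker after correction were 737 (2.78%; 3.4% over the genome), and at least 1.5-fold stronger were 185 (0.697%; 0.485% over the genome). Minus the genome median, the counts were 424 weaker and 367 stronger, and centered by size 341 and 452, so that the larger direction turned. The weaker loops had a median size of 581 kb and the stronger ones 397 kb. The difference between the pairs of lines was not tested.

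The log2 ratio fell with loop size in both pairs of lines, on chromosome 7 and elsewhere. The chromosome 7 medians of the H4 pair were 0.15 under 200 kb, 0.037 from 200 to 500 kb, -0.046 from 500 to 1000 kb and -0.11 at 1000 kb or more. On the other chromosomes they were 0.15, 0.11, 0.054 and -0.038, so that chromosome 7 lay lower in each class except the shortest. The 42MGBA pair had chromosome 7 medians of 0.00051, -0.053, -0.12 and -0.13, each above the other chromosomes at -0.019, -0.094, -0.16 and -0.19. Loop size moves with the ratio and chromosome 7 loops are longer, so each ratio was also centered on anchor pairs of similar size. The chromosome 7 median was then -0.060 in the H4 pair (0.0060 elsewhere) and 0.035 in the 42MGBA pair (-0.0024 elsewhere).

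**Figure D1:**
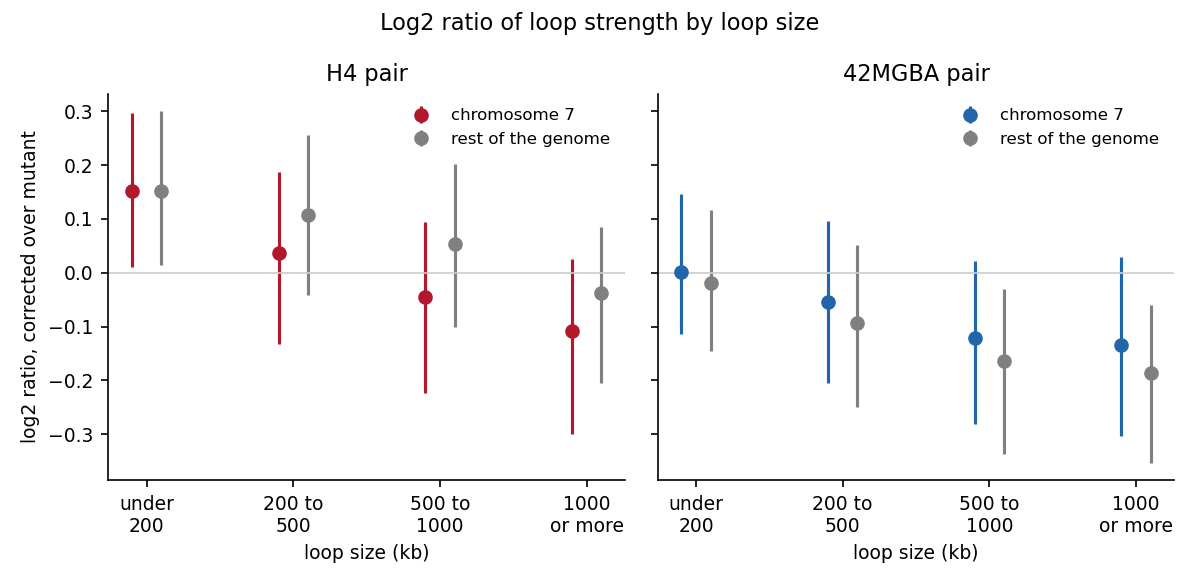
Median log2 ratio of loop strength, STAG2-corrected over STAG2-mutant (vertical axis), by loop size in kb (horizontal axis) for chromosome 7 in color and the other chromosomes in gray, with bars for the interquartile range over anchor pairs. Medians fall from 0.15 to -0.11 with size on chromosome 7 in the H4 pair and from 0.00051 to -0.13 in the 42MGBA pair.

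The short and long arms differed, and in opposite directions in the 2 pairs of lines. The centromere gap, the longest run of unknown bases, lies at chr7:58054332-61054331. For H4 88-1 against H4 the median log2 ratio was 0.023 over 22477 short-arm anchor pairs and -0.053 over 15273 long-arm anchor pairs, although the long-arm loops were the smaller (446 against 601 kb). Centered by size, the values were -0.016 and -0.13. The long arm held 40.5% of the anchor pairs of the H4 pair, 541 of the 835 weaker ones (64.8%) and 64 of the 498 stronger ones (12.9%). For 42MGBA 53-1 against 42MGBA the median was -0.080 over 19265 short-arm anchor pairs and -0.010 over 7275 long-arm anchor pairs, or 0.023 and 0.073 centered by size. The short arm held 72.6% of its anchor pairs, 591 of the 737 weaker ones (80.2%) and 84 of the 185 stronger ones (45.4%).

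Listed loops were concentrated in a few windows, and those from 15 to 20 and 45 to 50 Mb were among the 3 fullest in every line. The window from 15 to 20 Mb, around TWIST1 and HDAC9, held 3765 in H4 against 2953 in H4 88-1, and 4196 in 42MGBA against 3542 in 42MGBA 53-1. That from 45 to 50 Mb, around IGFBP3 and TNS3, held 3750, 3402, 2281 and 2703 in the same order. The window from 80 to 85 Mb, which holds HGF, CD36 and the class 3 semaphorin genes SEMA3A, SEMA3C, SEMA3D and SEMA3E, held 3878, 2507, 1308 and 1887. The mutant line listed more there in the H4 pair, and the corrected line in the 42MGBA pair. At the other extreme, among windows with any listed loop, that from 55 to 60 Mb held the fewest in H4 (26). In H4 88-1 it was that from 65 to 70 Mb (19). The window from 145 to 150 Mb held the fewest in 42MGBA (2) and 42MGBA 53-1 (0), with 78 in H4 and 20 in H4 88-1.

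**Figure D2:**
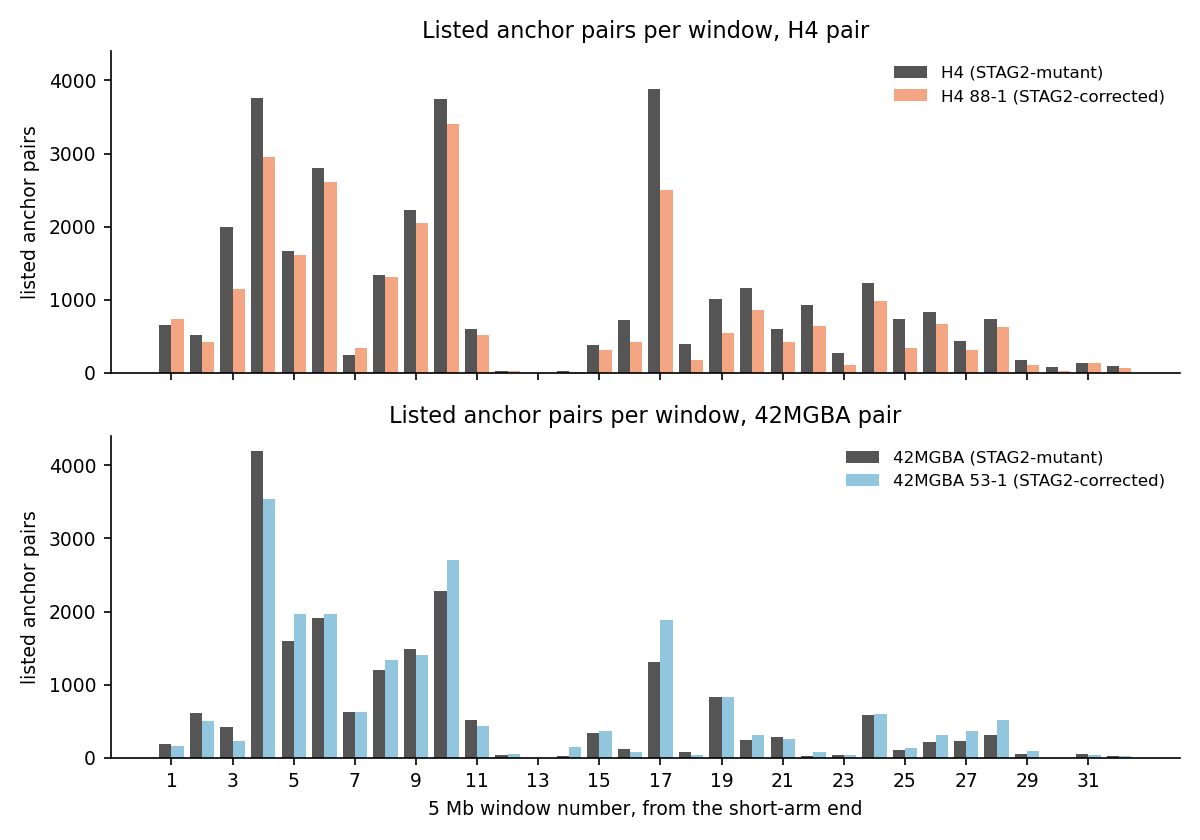
Number of listed chromosome 7 anchor pairs (vertical axis) in each 5 Mb window, numbered from the short-arm end (horizontal axis), with the STAG2-mutant line as dark bars and the STAG2-corrected line as light bars. Windows 4 and 10 are among the 3 fullest in every line, and in window 17 (80 to 85 Mb) H4 held 3878 against 2507 in H4 88-1, while 42MGBA held 1308 against 1887 in 42MGBA 53-1.

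Some single anchors took part in many loops. The 7 below had the largest number summed over the 4 lists once anchors close to a higher-ranked one were skipped. They were picked after their values were seen. The anchor chr7:45962885-45967853, beside the start of IGFBP3, whose product binds insulin-like growth factors, was in 228 anchor pairs of H4, 190 of H4 88-1, 155 of 42MGBA and 148 of 42MGBA 53-1. Its median log2 ratio was -0.15 for the H4 pair versus -0.12 for the 42MGBA pair. The anchor chr7:47125335-47129869, in no protein-coding gene, followed with 174, 146, 138 and 76, and medians of -0.10 and -0.26. The anchor chr7:27236793-27241554 at HOXA13, a patterning transcription factor gene, was in 117, 108, 126 and 129 anchor pairs, with medians of -0.069 and -0.018. The anchor chr7:41744914-41749803 at INHBA, which encodes a subunit of activin A, was in 137, 123, 75 and 70, with medians of 0.076 and -0.095. IGFBP3 and the anchor after it lie in the window from 45 to 50 Mb, and HOXA13 and INHBA in others. The anchor chr7:17020649-17025606, within the span of AHR, which encodes the aryl hydrocarbon receptor, was in 94, 74, 96 and 101 (-0.074 and -0.12). The anchor chr7:81130154-81134950, in no protein-coding gene, was in 112, 74, 81 and 95 (-0.22 and 0.17). The anchor chr7:84648064-84652982 in an exon of SEMA3D was in 127, 80, 39 and 99, with medians of -0.073 and 0.086. The count of each of the last 2 was lower after correction in the H4 pair and higher in the 42MGBA pair.

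Nearly all windows of chromosome 7 lay below the genome median in the H4 pair. A window was used when it held at least 50 anchor pairs, which left 29 in each pair of lines. The smallest window used held 78 anchor pairs for the H4 pair versus 58 for the 42MGBA pair, and the largest left out held 39 and 33. For the H4 pair, 26 of 29 window medians (89.7%) were below the median of all anchor pairs of the genome, 0.095, against 48.2% of windows over the genome. Of these, 11 were at least 0.1 below on the log2 scale (12.9% over the genome), and 1 window was at least 0.1 above (12.5% over the genome). Centered by size, 23 of 29 were below 0. The 42MGBA pair had 14 of 29 below the genome median of -0.077 (51.1% over the genome), 4 were at least 0.1 below (18.7%) and 7 at least 0.1 above (10.8%).

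**Figure D3:**
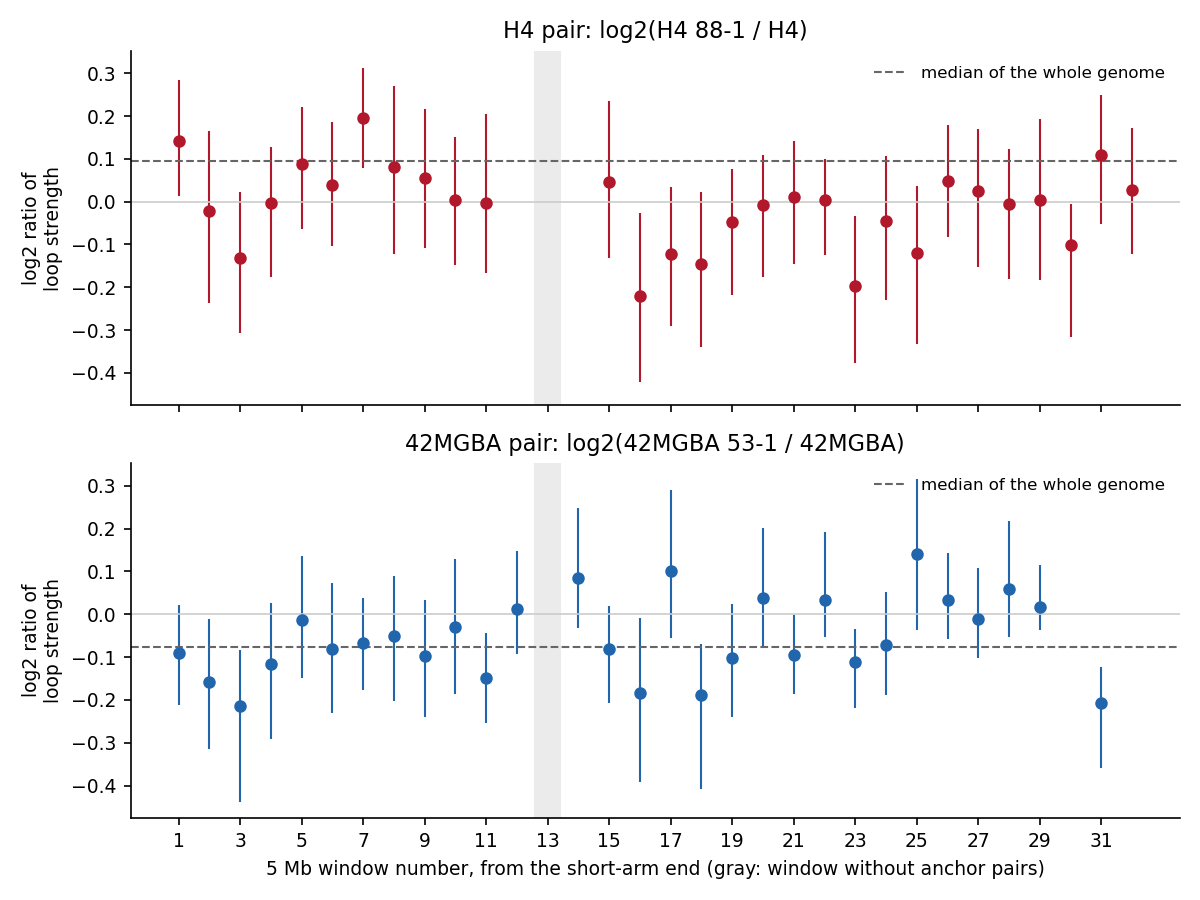
Median log2 ratio of loop strength (points, vertical axis) with the interquartile range over anchor pairs (bars) in each 5 Mb window of at least 50 anchor pairs, numbered from the short-arm end (horizontal axis), for the H4 pair above and the 42MGBA pair below. In the H4 pair 26 of 29 windows lie under the dashed genome median of 0.095, and in the 42MGBA pair 14 of 29 lie under -0.077.

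The window of lowest ratio in the H4 pair ran from 75 to 80 Mb (window 16), with a median of -0.22 over 773 anchor pairs (interquartile range -0.42 to -0.027). H4 listed 722 of them and H4 88-1 420. Its largest change among loops listed in both lines joined an intron of MAGI2, a scaffold protein of cell junctions, at chr7:78920365-78925158 with an intron of GNAI1, an inhibitory G protein subunit, at chr7:79637731-79642677. The strength was 8.70 before and 4.63 after correction in H4, and the loop was in neither 42MGBA list. Within the window, the anchor pairs that began from 78 to 80 Mb were the low ones, with medians of -0.24 (201) and -0.23 (553) for the 2 steps of 1 Mb. The 42MGBA pair also lay low here, at -0.18 over 152 anchor pairs.

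The next lowest window, from 110 to 115 Mb (window 23), had a median of -0.20 over 285 anchor pairs, of which H4 listed 278 and H4 88-1 108. Here an exon of DOCK4, an activator of small GTPases, at chr7:111403402-111408300 met chr7:112051552-112056364, the anchor whose motif stretches are printed first above. The strength was 11.1 in H4, 4.81 in H4 88-1 and 4.76 in 42MGBA 53-1, and the loop was absent from the 42MGBA list. H4 alone was high. The window from 85 to 90 Mb (window 18), which holds GRM3 and the drug transporter genes ABCB1 and ABCB4, had a median of -0.15 over 407 anchor pairs, 398 of them listed in H4 and 183 in H4 88-1. Its leading loop, chr7:85532332-85537331 with chr7:86088744-86093716, lies in no protein-coding gene and had strengths of 7.78 in H4 and 4.50 in H4 88-1.

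The 3 highest windows of the H4 pair were from 30 to 35 Mb (window 7; 0.20 over 386), 0 to 5 Mb (window 1; 0.14 over 913) and 150 to 155 Mb (window 31; 0.11 over 207). In the first, an exon of GHRHR, the receptor for growth hormone-releasing hormone, at chr7:31018324-31023258 met chr7:31154623-31159261 with 4.89 before and 7.53 after correction in the H4 lines. Between the 42MGBA lines the same loop was 8.50 before and 6.86 after correction, the reverse order. In the second, chr7:378497-383146 met an exon of DNAAF5, a factor for assembly of ciliary dynein, at chr7:795751-800468 with 4.19 in H4 and 7.92 in H4 88-1, and in neither 42MGBA list. In the third, both anchors lay in PRKAG2, a regulatory subunit gene of the energy sensor AMPK, at chr7:151273827-151278774 and chr7:151454256-151458884. The strength was 4.45 in H4 against 6.61 in H4 88-1, and 6.42 in 42MGBA against 4.72 in 42MGBA 53-1, again in reverse order between the pairs.

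In the 42MGBA pair the lowest window ran from 10 to 15 Mb (window 3), with a median of -0.21 over 475 anchor pairs, of which 42MGBA listed 419 and 42MGBA 53-1 235. Centered by size, the median was -0.066. The anchor pairs that began from 14 to 15 Mb numbered 53, and 42MGBA 53-1 listed none of them. The H4 pair had a median of -0.13 in this window over 2077 anchor pairs.

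The window from 150 to 155 Mb had a median of -0.21 over 63 anchor pairs in the 42MGBA pair, and its leading loop again lay in PRKAG2. At chr7:151264552-151269086 and chr7:151449362-151454255 the strength was 5.53 in H4 against 5.90 in H4 88-1, and 7.87 in 42MGBA against 5.05 in 42MGBA 53-1. The window from 85 to 90 Mb had a median of -0.19 over 91 anchor pairs. It was the only window among the 3 lowest of both pairs of lines, a rank that was not tested.

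The highest window of the 42MGBA pair ran from 120 to 125 Mb (window 25), with a median of 0.14 over 165 anchor pairs. A loop from the start of CPED1, chr7:120622489-120627459 with chr7:120742453-120747185, had strengths of 5.43 in H4 against 6.95 in H4 88-1, and 5.21 in 42MGBA against 8.44 in 42MGBA 53-1. It was stronger in the corrected line of each pair. The window from 80 to 85 Mb (window 17) had a median of 0.10 over 2107 anchor pairs. Here chr7:83546587-83551593 met the SEMA3D exon anchor over 1101 kb with 12.4 in H4 against 14.3 in H4 88-1, and 6.65 in 42MGBA against 14.4 in 42MGBA 53-1. The 42MGBA value stood apart, and the other 3 lines lay close together.

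The last of the high windows, from 65 to 70 Mb (window 14; 0.086 over 158), rested on loops absent from the 42MGBA list, which held 30 against 146 in 42MGBA 53-1. Over the 18 anchor pairs listed in both, the median was -0.10, so the sign of this window depends on the value given to absent loops. Its leading loop joined a start of TPST1, a tyrosine sulfation enzyme, at chr7:65669156-65674172 to its exon at chr7:65821227-65826203, with 4.58 in 42MGBA and 6.95 in 42MGBA 53-1.

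Along the chromosome, the profiles of the 2 pairs of lines were only loosely alike. Over the 27 windows used in both, Spearman's rho between the medians was 0.17, and 0.053 centered by size. The points are neighboring stretches of 1 chromosome, and the 2 pairs share no list. After centering on the genome median of each pair, 12 windows were below in both, 1 above in both, 12 below in the H4 pair only and 2 below in the 42MGBA pair only. The 2 windows of largest difference were 120 to 125 Mb, at -0.21 for the H4 pair versus 0.22 for the 42MGBA pair, and 80 to 85 Mb, at -0.22 and 0.18.

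In steps of 1 Mb, the semaphorin window did not move as a whole. In the H4 pair the medians were -0.19 from 80 to 81 Mb (1241 anchor pairs), -0.094 from 81 to 82 Mb (1317), -0.073 from 83 to 84 Mb (692) and -0.12 from 84 to 85 Mb (807). Those of the 42MGBA pair were 0.21 (319), 0.13 (1002), 0.11 (488) and -0.21 (298) over the same steps. In these steps the pairs of lines therefore had opposite signs up to 84 Mb and the same sign in the last, which holds SEMA3D. The step from 82 to 83 Mb held 23 anchor pairs in the H4 pair (-0.077) and none in the 42MGBA pair. Loops at the SEMA3D start itself did not share a sign, with medians of 0.12 and -0.12. In the window from 120 to 125 Mb, most anchor pairs of the 42MGBA pair lay in steps of opposite sign between the pairs. The step from 120 to 121 Mb was at -0.049 for the H4 pair (249) versus 0.13 for the 42MGBA pair (106). The step from 121 to 122 Mb was at -0.14 (322) and 0.19 (46). Signs were the same from 123 to 124 Mb, at -0.23 (159) and -0.15 (11), and from 124 to 125 Mb, at -0.16 (49) and -0.17 (2). The corrected line of the 42MGBA pair listed no anchor pair in either of these last steps. Their 42MGBA values therefore rest on the value given to absent loops.

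**Figure D4:**
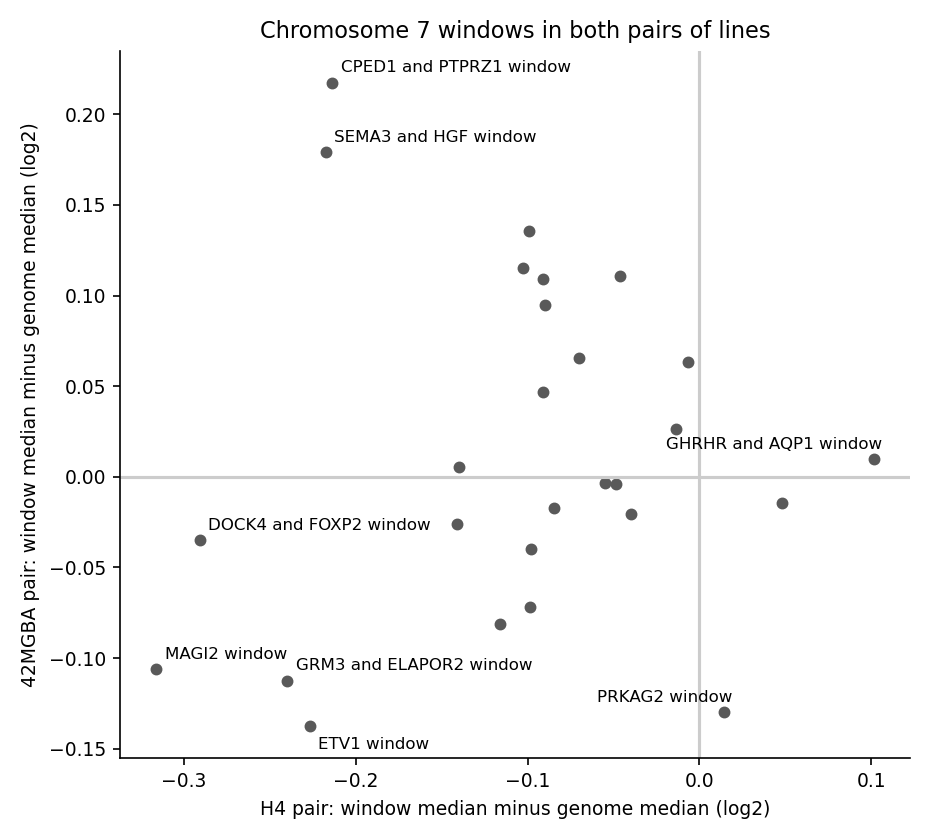
Window medians of the log2 ratio minus the genome median in the H4 pair (horizontal axis) and the 42MGBA pair (vertical axis), 1 point for each of the 27 windows of chromosome 7 used in both; labels name genes in the window. Most points lie left of 0, and the windows of CPED1 and of the semaphorins are at -0.21 and -0.22 in the H4 pair but at 0.22 and 0.18 in the 42MGBA pair.

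Window medians spread more between lines of different origin than within a pair. The SD of window medians was 0.15 for 42MGBA over H4 and 0.13 for 42MGBA 53-1 over H4 88-1, against 0.097 for the H4 pair versus 0.095 for the 42MGBA pair.

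Few single loops moved the same way in both pairs. Of the 16206 anchor pairs of chromosome 7 that were in both pairs of lines, 18 were at least 1.5-fold weaker after correction in both, or 0.111%, with 0.108% over the genome. These were 4.93% of the 365 called weaker in the H4 pair and 3.08% of the 584 in the 42MGBA pair, against 15.9% and 2.07% on the other chromosomes. At least 1.5-fold stronger in both were 14, or 0.0864%, with 0.0313% over the genome. A further 16 were stronger in the H4 pair and weaker in the 42MGBA pair (0.0987%, with 0.184% over the genome), 13 of them in the window from 35 to 40 Mb, and 3 showed the reverse (0.0185%, with 0.00332% over the genome).

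The shared loops lay in a handful of places. Of the 18 weaker in both, 9 lay between 84652983 and 85485730, from the edge of the SEMA3D exon anchor onward, and 5 between 86553651 and 86869021. The one of largest change in the latter group joined an intron of ELAPOR2 at chr7:86558502-86563218 with chr7:86864156-86869021. Its strength was 10.8 in H4 against 6.35 in H4 88-1, and 8.68 in 42MGBA against 4.38 in 42MGBA 53-1. Both STAG2-mutant lines were above both STAG2-corrected lines. Of the 14 stronger in both, 11 lay between 47605254 and 47867641. The one of largest change joined the start of TNS3, a tensin of focal adhesions, at chr7:47614925-47619825 with an exon of PKD1L1, a polycystin family gene, at chr7:47858004-47862712. It was absent from H4 and had strengths of 8.65 in H4 88-1, 5.48 in 42MGBA and 10.1 in 42MGBA 53-1, so both corrected lines were above both mutant lines.

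The strongest loops of the chromosome had close strengths within a pair. In H4 and H4 88-1 the strongest joined an exon of SNX10, a sorting nexin gene, at chr7:26407147-26411645 with an exon of SKAP2, an adaptor protein gene, at chr7:26702239-26707169. The strength was 35.1 in H4 against 34.3 in H4 88-1, and 15.6 in 42MGBA against 17.1 in 42MGBA 53-1. In both 42MGBA lines the strongest joined chr7:93921800-93926659 with the start of COL1A2, a chain of type I collagen, at chr7:94023831-94028743. It was 14.9, 16.4, 29.2 and 28.0 in the same order. Both loops separated the H4 lines from the 42MGBA lines and not the genotypes.

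Gene starts were described by 4 lists of chromosome 7 genes, with the loops that had an anchor within 3 kb of a transcript start. A gene was counted when at least 10 anchor pairs touched its starts, and neighboring genes such as those of HOXA share anchors. The main loop of a gene is here the one whose strengths had the largest sum over the 4 lists, which need not be the strongest in each line. Of the 30 patterning genes, 21 were counted in the H4 pair and 20 of these had a median below the genome median, as had 62.2% of the 217 genes of chromosome 7 that were counted. For the 42MGBA pair 14 of 18 were below, against 43.4% of 166 genes. All HOXA genes of the list were among those counted in both pairs of lines. These counts, and those of the gene lists below, were not centered by size. TWIST1, a transcription factor of mesenchymal identity, was the exception in the H4 pair, at a median log2 ratio of 0.099 over 122 anchor pairs, only 0.0042 above the genome median and 0.023 centered by size, and was at -0.26 over 101 in the 42MGBA pair (-0.12 centered by size). Its main loop, to an anchor at 19701664, was 12.3 in H4 against 13.0 in H4 88-1, and 11.7 in 42MGBA against 10.5 in 42MGBA 53-1.

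The homeobox gene HOXA5 was at 0.062 over 110 anchor pairs for the H4 pair versus -0.36 over 49 for the 42MGBA pair, all 49 below 0. Minus the genome medians these values were -0.033 and -0.29, and centered by size 0.00075 and -0.25. Its main loop, from an anchor at 26721413, was 21.0 in H4 against 23.9 in H4 88-1, and 16.0 in 42MGBA against 11.5 in 42MGBA 53-1, and the 42MGBA lines were the lower. HOXA4, a neighbor in the same cluster, was at -0.055 (65) and -0.019 (31). DLX5, a homeobox gene of the forebrain and skeleton, was lowest in the H4 pair at -0.20 over 66 anchor pairs, of which H4 listed 64 and H4 88-1 25. Its neighbor DLX6 was at -0.13, with 13 anchor pairs in H4 and none in any other list. CREB5, a leucine zipper transcription factor gene, was lowest in the 42MGBA pair at -0.37 over 43, with 38 listed in 42MGBA and 14 in 42MGBA 53-1.

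Of the 17 genes of growth signaling and the cell cycle, 3 were counted in each pair of lines. CDK6, the kinase that drives entry into S phase, was at 0.30 over 25 anchor pairs for the H4 pair versus -0.086 over 63 for the 42MGBA pair. Centered by size, the H4 value was 0.17. Its main loop, between anchors at 92248580 and 92461841 near its own start, was 5.76 in H4 against 7.62 in H4 88-1, and 10.0 in 42MGBA against 10.4 in 42MGBA 53-1. MET, the receptor of hepatocyte growth factor, was at 0.23 over 32 (0.074 centered by size) and 0.022 over 27. HGF, which encodes that ligand, was at -0.19 over 21 in the H4 pair (-0.31 centered by size), and its main loop was 11.3 in H4 against 7.91 in H4 88-1, and 6.15 in 42MGBA against 6.54 in 42MGBA 53-1. EGFR had no listed anchor pair in H4 or H4 88-1, 18 in 42MGBA and 21 in 42MGBA 53-1, with a median of -0.024 over 29.

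Of the 25 neural genes, 11 were counted in the H4 pair, 7 of them (63.6%) below the genome median against the 62.2% of all counted genes, and 2 were counted in the 42MGBA pair. SEMA3E was the highest at 0.54 over 20 anchor pairs, while SEMA3C, in the same window, was at -0.28 over 116. The main loop of SEMA3C was 16.5 in H4 and 13.2 in H4 88-1, and that of SEMA3E 7.76 and 12.0, and neither gene had an anchor pair in a 42MGBA list. PLXNA4, a semaphorin co-receptor gene, was at 0.38 over 14, of which H4 listed 3. GRM8, a glutamate receptor gene, was lowest at -0.34 over 16. SEMA3D was at -0.12 over 26 and SEMA3A at -0.0061 over 15 in the 42MGBA pair. SEMA3D was at 0.12 over 39 in the H4 pair, and its main loop was 9.11 in H4 against 9.09 in H4 88-1, and 8.99 in 42MGBA against 8.73 in 42MGBA 53-1.

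Of the 28 extracellular matrix, secreted and contractile genes, 15 of 18 counted in the H4 pair (83.3%) were below the genome median, against 62.2% of all counted genes, and 5 of 15 in the 42MGBA pair (33.3%), against 43.4%. CAV1, the scaffold of caveolae, was at 0.23 over 61 anchor pairs in the H4 pair, of which H4 listed 28 and H4 88-1 all 61, and was at 0.091 centered by size. Its main loop was 12.1 in H4 against 15.3 in H4 88-1, and 13.2 in 42MGBA against 12.0 in 42MGBA 53-1. ELN, which encodes elastin, was at 0.23 over 24 for the H4 pair versus -0.16 over 16 for the 42MGBA pair, or 0.086 and -0.12 centered by size. SFRP4, a secreted Wnt modulator gene, and CD36, a fatty acid receptor gene, were the lowest in the H4 pair, both at -0.17, over 49 and 246 anchor pairs.

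COL28A1, a collagen gene, was lowest in the 42MGBA pair at -0.44 over 29, all 29 below 0, and its main loop was 7.47 in H4 against 5.53 in H4 88-1, and 13.1 in 42MGBA against 8.77 in 42MGBA 53-1. Both corrected lines were lower than their mutant line. CAV2, the neighbor of CAV1, was at -0.19 over 11 in the 42MGBA pair. CALD1, which encodes an actin-binding protein, was highest at 0.26 over 26, of which 42MGBA listed 7, and IL6, a cytokine gene, was at 0.072 over 93.

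**Figure D5:**
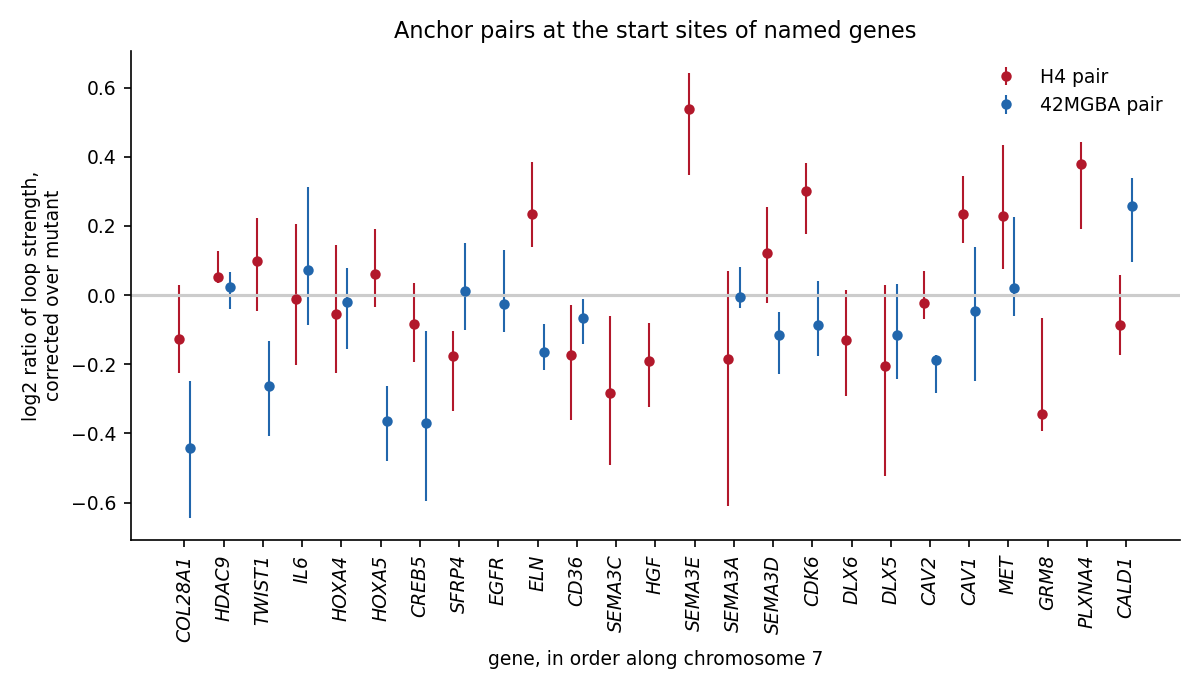
Median log2 ratio of loop strength (vertical axis) over the anchor pairs at the starts of the named genes, in order along the chromosome (horizontal axis), with bars for the interquartile range over anchor pairs, red for the H4 pair and blue for the 42MGBA pair; a gene with fewer than 10 anchor pairs in a pair of lines has no point. HOXA5 is at 0.062 for the H4 pair versus -0.36 for the 42MGBA pair, and SEMA3E at 0.54 in the H4 pair only.

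The H4 profile varied with the base composition of the windows, and that of the 42MGBA pair showed little relation to it. Over 29 windows, Spearman's rho of the window median with the GC content was 0.64 for the H4 pair versus 0.059 for the 42MGBA pair. With the number of motif matches in the window rho was 0.70 and -0.0099, and with the number of protein-coding genes 0.45 and -0.051. The window from 0 to 5 Mb had 51.0% GC, 43 protein-coding genes and 307 motif matches, whereas that from 80 to 85 Mb had 35.3% GC, 8 genes and 60 matches. Over 500 windows of the other chromosomes rho with GC was 0.44 in the H4 pair, and it was positive on 20 of 20 chromosomes with at least 10 windows (0.17 to 0.74). For the 42MGBA pair it was 0.081 over 478 windows and positive on 9 of 19 chromosomes. Windows of a chromosome are neighbors, and GC, genes and motif matches vary together, so that their parts in the window medians cannot be told apart here.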

How the data were processed

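Chromatin loops were measured by Hi-C in 4 lines, with 2 replicates of each. Reads were trimmed by the authors, mapped to hg19 with bowtie and cleared of duplicates, and read pairs were placed in 5 kb anchors, with bias correction by HiCorr and enhancement by DeepLoop. The deposited lists give a signal, called loop strength, and keep the 300000 highest anchor pairs per line, replicates pooled. How lists were scaled to each other is not given in the sources used here. Library totals and reads per loop were not used here, so that the precision is unknown.

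An absent value was set to the lowest of its list, and log2 ratios were taken over anchor pairs listed in either line. Size runs from midpoint to midpoint of the anchors. The CTCF-core-like motif was written by hand, from no reference file, and its letters are not printed. Genes, exons and transcript starts came from GENCODE release 44 on hg19. The named windows were the 3 lowest and 3 highest per pair of lines and the 2 of largest difference. In each, the loop listed in both lines that changed most in the direction of the window was named. To these were added the loop of largest change shared by both pairs, the strongest loop of each list, and the 2 lowest and 2 highest genes per gene list. A loop that this rule names is not reported here. The members, lists and rules were chosen with earlier results of these data known. Alternatives changed the treatment of absent loops, the loops kept, the centering, the windows and the fold. A simulation with shifts planted in a few windows checked only that their sign was recovered. It held no loops listed only in the corrected line, so it does not cover them. The 12 RNA-seq samples were not analysed here. Python 3.11.15, numpy 2.4.6, pandas 2.3.3 and matplotlib 3.10.9 were used.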

Additional observations from a re-analysis of the deposited data

Results flagged for a closer look

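Some windows, genes and loops of chromosome 7 had log2 ratios of opposite sign in the 2 pairs of lines, each at least 0.1 from 0. With 1 pooled list per line, none of these differences was tested. The median of all anchor pairs of the genome was 0.095 for the H4 pair versus -0.077 for the 42MGBA pair, so the values are also given minus these medians. The window from 80 to 85 Mb was at -0.12 for the H4 pair versus 0.10 for the 42MGBA pair, or -0.22 and 0.18 minus the genome medians. That from 120 to 125 Mb was at -0.12 and 0.14, or -0.21 and 0.22. That from 150 to 155 Mb was at 0.11 and -0.21, but at 0.015 and -0.13 minus the genome medians, so that its H4 value was then close to 0. At gene starts, ELN was at 0.23 for the H4 pair versus -0.16 for the 42MGBA pair, or 0.14 and -0.086. SEMA3D was at 0.12 and -0.12 (-0.115), but at 0.027 and -0.038 minus the genome medians, and at -0.014 and -0.090 centered among anchor pairs of similar size, both below 0. The loop at GHRHR, from 31018324 to 31154623, was at 0.62 and -0.31, or 0.53 and -0.23 minus the genome medians. The loop within PRKAG2, from 151273827 to 151454256, was at 0.57 and -0.45, or 0.48 and -0.37.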

How the results depend on the processing

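No paired analysis was possible because the authors pooled the replicates of each line into 1 list, and for the same reason no replicate could be left out. Without replicates, a median was compared with the SD of the chromosome 7 window medians (0.097 and 0.095), and a count was held to 1.5 times its value. Of 76 comparisons of the main results with an alternative, 43 stayed within these limits. Some of the 43 could not move. Centering on the genome median leaves the counts of windows below it, and rho, as they are. It also shifts the chromosome 7 median of each pair by less than its limit. Taking loops of any list adds none that pass 1.5-fold. Keeping only the 100000 strongest of either line left every count past 1.5-fold as it was. Counts at least 1.5-fold weaker in the H4 pair (835) became 549 over loops listed in both lines, 1354 with absent values at 0.9 of the lowest, 1637 centered on the genome median, 134 with 1 anchor pair per 25 kb block and 44 at 2-fold. The 498 stronger became 327, 897, 227, 79 and 15 under the same settings, and 237 centered by size. For the 42MGBA pair the 737 weaker became 434, 1200, 424, 123 and 54, and 341 centered by size. Its 185 stronger became 122, 370, 367, 36 and 3, and 452 centered by size. Centering on the genome median raised the H4 pair's weaker calls and lowered its stronger calls, and did the opposite in the 42MGBA pair, so that the split between directions depends on it.

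The H4 median of -0.0065 was -0.11 over the 100000 strongest of either line, and 0.070 over loops of any of the 4 lists, where loops absent from both lines take the ratio of the lowest strengths. Windows below the genome median in the H4 pair were 14 of 15 with 10 Mb windows and 45 of 58 with 2 Mb windows. In the 42MGBA pair they were 5 of 16 and 22 of 49, 8 of 20 over the 100000 strongest, 9 of 29 centered by size, 8 of 17 with 1 anchor pair per block and 0 of 31 over loops of any list. Spearman's rho between the pairs was -0.21 with 10 Mb windows (n = 15). Over loops of any list, the 42MGBA windows from 80 to 85 and 120 to 125 Mb and CALD1 turned to -0.070, the ratio of the lowest strengths. Centered by size, the COL1A2 loop turned to -0.030 in the H4 pair and the 42MGBA window from 110 to 115 Mb to 0.014. Of 488 comparisons for single windows, genes and loops, 386 stayed within the limits and 97 moved beyond them. The other 5 had a main value at least 0.1 from 0 and changed sign. Smaller main values that changed sign were not counted as such and are among the 386 or the 97. Centering on the genome median shifts every value by less than the limits, so its 73 comparisons stayed within them by construction.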
